A study of Mus musculus with 36 samples.

Results

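The genes described here are those encoded by mitochondrial DNA, measured in mouse gastrocnemius muscle. They were taken as every feature that the count table places on the mitochondrial chromosome, which gave 37 of 46893 features: 13 mRNAs, 2 rRNAs and 22 tRNAs. The RNA came from male wild-type C57BL/6 mice that were 3 to 4 weeks old at the start and were kept for 12 weeks on their diet, sedentary or with a running wheel. There were 36 mice, 6 in each of 6 groups. Both sedentary groups are controls: NFD-C mice ate the AIN93G diet, and HFD-C mice ate a high-fat diet (HFD). The other groups also ate the HFD and had an in-cage wheel. HFD-U mice ran without restriction and averaged 8.3 km per day, and brakes held the others near a percentage of that distance, at 2.1 km in HFD-25%, 4.2 km in HFD-50% and 6.3 km for HFD-75%. Each library came from 1 muscle of 1 mouse, so the p-values measure the spread between these mice.

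Mitochondrial DNA is a small circle present in many copies in each cell. Its 2 strands are transcribed into long RNAs, from which the tRNAs that stand between most of the genes are cut out, and this frees the rRNAs and mRNAs. The mRNAs encode core subunits of the respiratory chain and of ATP synthase, the rRNAs and tRNAs serve the ribosomes that translate them inside the organelle, and all of the enzymes that copy, transcribe and process mitochondrial DNA are encoded in the nucleus. Skeletal muscle with many slow, oxidative fibres is rich in mitochondria, and endurance training is known to raise the mitochondrial content of muscle.

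The total count per library ran from 13060090 to 27981702 with a median of 16710687.5. The muscle genes Acta1, Ckm, Myh4 and Tnnt3 were high in all 36 libraries. Of the other listed fast-fibre genes, Myh1 had a median of 61153.5 counts per library and Mylpf only 11.5. Ucp1, which marks brown fat, was at 0 in 35 libraries. The other listed fat-cell genes were present, with a median of 3194 counts for Fabp4, 65.5 for Cfd and 28.5 for Cidec. Adipoq had 16.5, Plin1 7.5 and Lep 7. The libraries fell into 2 sets by their share of counts on AY036118 and LOC118568312, nuclear features linked to rRNA. This share was 1.602% to 3.23% in 10 libraries (all NFD-C mice and HFD-C mice 1 to 4) and 0.126% to 0.360% in the other 26 (HFD-C mice 5 and 6 and all 24 running mice). The 2 sets separate the running mice from most of the sedentary ones, so fits with this share as a covariate, and fits within the low-share libraries, were also made.

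The 13 mRNAs differed widely in level per length. As the median over 36 mice in RPKM (counts scaled by the library total and by gene length), mt-Co1, the core subunit of cytochrome c oxidase, was highest at 36037. It was followed by mt-Nd1 at 23028, mt-Cytb (cytochrome b of complex III) at 21820, mt-Nd2 at 14197, mt-Nd4 at 12010, mt-Nd6 at 10044 and mt-Nd5 at 7334, the Nd genes being subunits of complex I. The other 6 mRNAs were far lower: mt-Atp6 stood at 600.4 and mt-Atp8 at 14.4 (both subunits of ATP synthase), mt-Co2 at 586.5 and mt-Co3 at 402.8 (both subunits of cytochrome c oxidase), and mt-Nd4l at 83.6 and mt-Nd3 at 37.2 (both of complex I). The lowest of the first 7 was 12.2 times the highest of these 6, and mt-Co1 was 61.4 times mt-Co2, the gene next to it but for tRNAs. The rRNAs lay between, with 1236 for mt-Rnr1 (12S) and 1276 for mt-Rnr2 (16S).

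**Figure D1:**
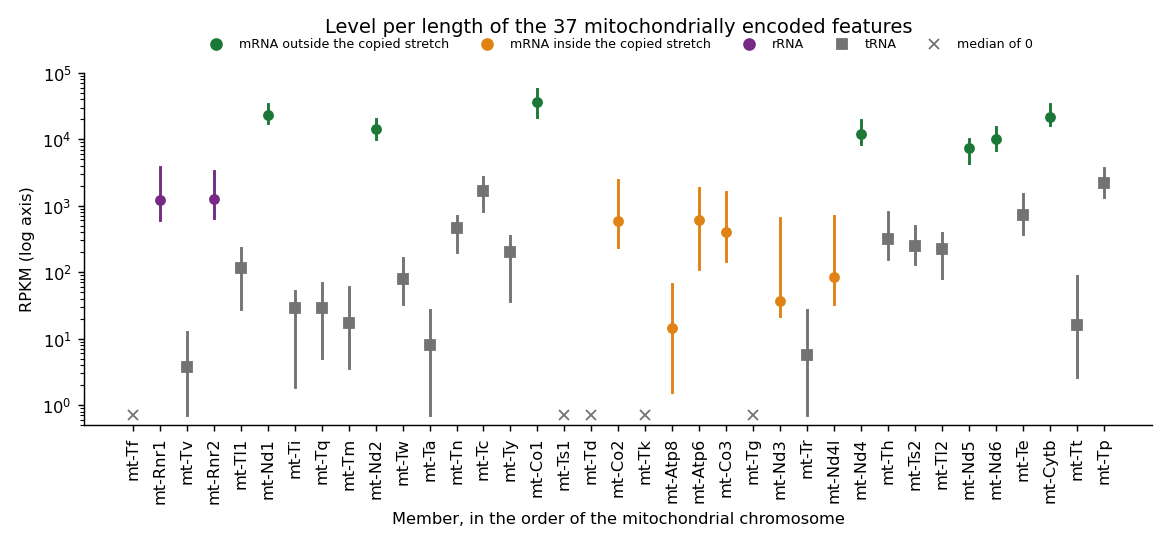
Level per length of the 37 mitochondrial features, in RPKM on a log axis, with the median over 36 mice as a point and a line from the lowest to the highest mouse. Lines that reach 0 are cut near the lower edge, and a cross without a line marks a median of 0. The 7 mRNAs that lie outside the stretch copied on chromosome 1, or only partly in it, have medians from 7334 to 36037, and the 6 that lie wholly in it from 14.4 to 600.4.

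The 6 low mRNAs are neighbours and all lie in a stretch of mitochondrial DNA that has a near-identical copy in the nuclear genome. In the GENCODE annotation of GRCm38, 7 unprocessed pseudogenes in a row at chr1:24611535-24616197 (4663 bases) match mitochondrial positions 6390 to 11042. Of 4137 aligned gene bases, 4136 were identical. The pseudogenes match mt-Co2, mt-Atp6, mt-Co3, mt-Nd3 and mt-Nd4l over nearly their whole length, together with 31.3% of mt-Co1 and 63.6% of mt-Nd4. No pseudogene was matched to mt-Atp8, which lies between mt-Co2 and mt-Atp6 and was placed in the stretch by its position alone. None of the 7 pseudogenes has a named row in the count table. How reads that match both places were counted is not given in the sources used here, so the levels of these 6 genes are uncertain, and the part of the copy in them was not tested.

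The first 90 bases of mt-Co2 (chrM:7013-7102, plus strand) and of its copies show how close the match is, and no read that lies within such a run can be placed on one of the identical pair by its sequence. The copy on chromosome 1 is Gm28661 (GRCm38 chr1:24615476-24615565, minus strand), with 0 differences.
mt-Co2: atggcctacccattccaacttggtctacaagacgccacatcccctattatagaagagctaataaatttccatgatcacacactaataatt
Gm28661: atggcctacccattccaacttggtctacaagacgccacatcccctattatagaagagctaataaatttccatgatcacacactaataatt
A further copy on chromosome 2, Gm13341 (GRCm38 chr2:22587873-22587962, minus strand), has 2 differences in this run, shown in capitals in both sequences, and 97.6% identity over the gene.
mt-Co2: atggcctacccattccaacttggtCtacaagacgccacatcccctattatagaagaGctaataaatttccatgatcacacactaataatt
Gm13341: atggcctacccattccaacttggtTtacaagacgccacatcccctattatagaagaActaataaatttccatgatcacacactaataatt
For mt-Nd3, bases 4 to 93 of the gene (chrM:9462-9551) are shown because single mice stood far above their groups in this gene. They equal those of Gm28438 (GRCm38 chr1:24613027-24613116, minus strand), again with 0 differences.
mt-Nd3: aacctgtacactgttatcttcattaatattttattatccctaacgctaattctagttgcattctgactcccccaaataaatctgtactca
Gm28438: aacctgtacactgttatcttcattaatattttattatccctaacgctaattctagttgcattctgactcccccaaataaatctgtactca

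The genes inside and outside the copied stretch also differed in how much they varied. Over 36 mice the highest value was 1.94 to 2.61 times the lowest for the 7 mRNAs not wholly inside it, and 10.2 to 42.1 times for the 6 inside. The 6 held 0.374% to 1.85% of all counts on the 13 mRNAs, so every sum below is made up almost wholly of the 7. A feature without a name in the table, at GRCm39 chr1:24650296-24655272 on the plus strand, had 380 to 5059 counts per library, and a second one on the minus strand (chr1:24650614-24655269) had 0 in all 36. The tRNAs in the stretch, mt-Ts1, mt-Td, mt-Tk, mt-Tg and mt-Tr, were at or near 0. Some outside it were too, with mt-Tf at 0 in all 36 libraries and mt-Tv at a median of 4 counts, beside 7 for mt-Tr.

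Together the 13 mRNAs took 10.6% to 22.9% of all counts of a library. Among sedentary mice the median share was 12.7% in NFD-C (range 10.6% to 16.1%) and 14.4% in HFD-C (12.3% to 20.5%). Among running mice HFD-25% had a median of 16.0% (12.4% to 22.9%), HFD-50% one of 17.6% (13.4% to 21.7%), HFD-75% one of 14.8% (11.3% to 17.3%) and HFD-U one of 16.2% (11.7% to 21.99%). All 6 ranges overlapped, and of the 24 running mice 5 lay above every HFD-C mouse and 2 below. The shares did not follow the daily distance, since HFD-75% had the lowest median of the exercise groups. A share of counts in bulk muscle cannot tell fewer mitochondria-rich fibres from less RNA per fibre.

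**Figure D2:**
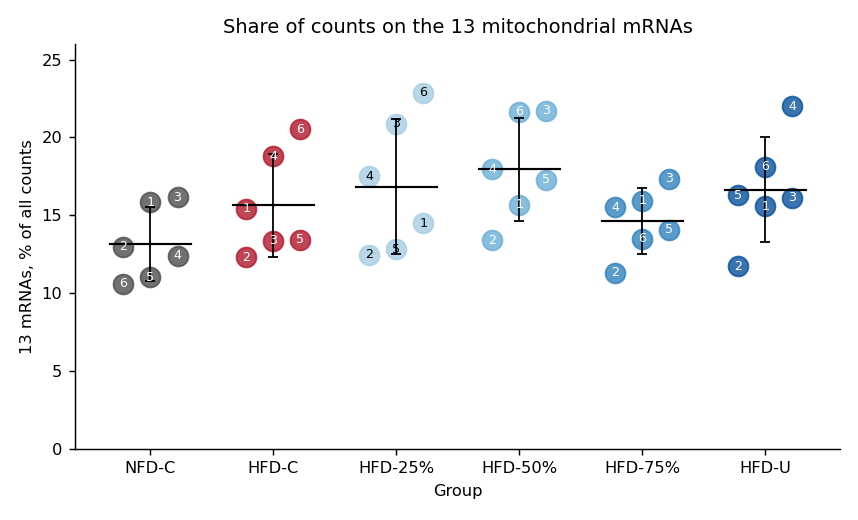
Share of all counts on the 13 mitochondrial mRNAs, in percent, for each mouse by group; points carry the mouse number, bars are group means and error bars are 1 SD (n = 6 mice each). The ranges of all groups overlap, between 10.6% in an NFD-C mouse and 22.9% in an HFD-25% mouse, and the 6 mice numbered 1 lie close together at 14.5% to 15.9%.

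Mice with the same number in different groups were alike in this share for some numbers. The 6 mice numbered 1 had 14.5% to 15.9% in all groups and the 6 numbered 2 had 11.3% to 13.4%. The mice numbered 6 ranged from 10.6% to 22.9%. The labels do not say what a number marks.

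The mRNA level moved with the fibre type markers across mice. Over 36 mice, the log2 level of the 7 mRNAs had a Pearson correlation of 0.71 (Spearman 0.70) with the summed slow-fibre markers and of -0.73 (Spearman -0.73) with the summed fast-fibre markers. Without the 2 mice farthest from the median these were 0.68 and -0.69, and for deviations from group means 0.66 and -0.72. All values come from the same libraries and share their totals, and 45 such relations were computed, so the correlations are a description. The slow-fibre sum itself varied widely within groups, from 133 to 2322 CPM (counts scaled to the TMM-adjusted library total) in HFD-C and from 34.0 to 1881 CPM in NFD-C.

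Of the 7 mRNAs not wholly in the copied stretch, none passed the test in any comparison with HFD-C. The test was edgeR's quasi-likelihood test with the study's limit of an unadjusted p of at most 0.05, and all comparisons with HFD-C share its 6 mice. The log2 changes of the 7 lay between -0.10 and 0.10 in HFD-25% and between 0.06 and 0.24 in HFD-50%. HFD-75% had changes of -0.23 to -0.03 and HFD-U of -0.04 to 0.13, and NFD-C had -0.31 to -0.19. All 7 were below 0 in NFD-C and in HFD-75%, and all 7 above 0 in HFD-50%. The median change over all genes tested was between -0.01 and 0.01 in these 5 comparisons. Each gene was also put to an exact permutation test over the mice (two-sided, on mean log2 CPM), chosen after seeing the data, and over the 7 genes and the comparisons of 2 sets of mice its smallest value was p = 0.167.

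mt-Co1 carried the largest share. Its level was 40656 to 80856 CPM in HFD-C (median 50218) and 33749 to 57884 CPM in NFD-C (median 40861). In the exercise groups HFD-25% had a median of 55168 CPM, HFD-50% of 62488, HFD-75% of 51215 and HFD-U of 57057. The change from HFD-C was -0.31 ± 0.22 (SE, log2) in NFD-C (edgeR, unadjusted p of 0.171) and 0.24 ± 0.23 in HFD-50% (unadjusted p of 0.299). With 6 mice per group and SEs of 0.17 to 0.24 for the 7 genes, changes of this size were not detectable. mt-Cytb, the only complex III subunit encoded here, had medians of 24616 CPM in HFD-C, 20983 in NFD-C and 26593 over the 24 running mice. Its change in the running mice together was 0.01 ± 0.14.

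Among the complex I subunits, mt-Nd2 was the only one of the 7 that any alternative fit called. With the rRNA-linked level as a term in the fit its change was -0.43 in HFD-75% and -0.36 in the running mice together, both called, against -0.23 ± 0.18 and -0.08 ± 0.14 without the term, neither called. Within the sum of the 7 mRNAs, mt-Nd2 made up 9.84% to 10.2% in HFD-C, 9.81% to 11.6% in NFD-C and 8.54% to 10.8% in the running mice. All 6 HFD-25% mice and all 6 HFD-75% mice lay below every HFD-C mouse in this share, as did 21 of all 24 running mice. mt-Nd1 showed a smaller difference, with 14.4% to 16.6% in HFD-C and 12.5% to 16.0% in the running mice, of which 10 were below every HFD-C mouse. mt-Co1 made up 31.9% to 37.1% in HFD-C and 33.1% to 40.1% in the running mice. These shares are made of sums within a library and were not tested, and HFD-C mice 1 to 4 differ from the running mice also in the rRNA-linked share, whose part was not tested.

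**Figure D3:**
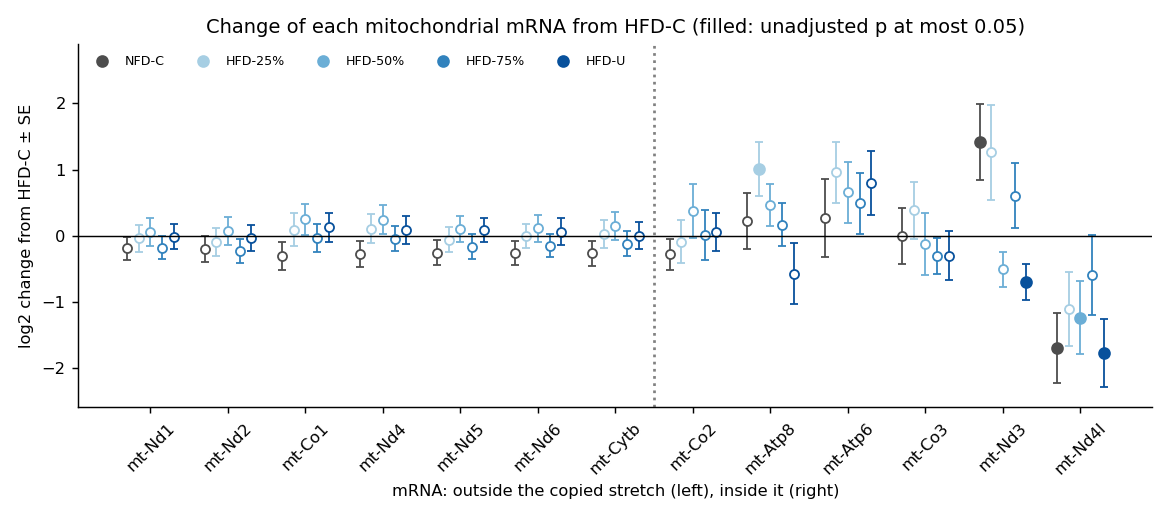
Log2 change of each of the 13 mitochondrial mRNAs against HFD-C, with its SE, for NFD-C and the exercise groups (n = 6 mice each); filled points passed edgeR at an unadjusted p of at most 0.05. The 7 mRNAs not wholly in the copied stretch lie between -0.31 and 0.24 and none is filled, while the filled points are mt-Atp8, mt-Nd3 and mt-Nd4l.

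The calls among the mRNAs all fell on the 3 least abundant genes of the copied stretch, mt-Nd4l, mt-Nd3 and mt-Atp8. In HFD-25% 1 of 13 mRNAs was called, beside 6.98% of all genes tested, and HFD-50% also had 1 of 13, beside 10.7%. In HFD-75% 0 of 13 were called by edgeR (5.47% of all genes), with 0 also by DESeq2. HFD-U had 2 of 13 called (5.46%), NFD-C 2 of 13 (4.12%), and the running mice together 1 of 13 (9.27%). After Benjamini-Hochberg adjustment over all genes, edgeR called none of the 37 features in any comparison, beside 0.0082% of genes in HFD-25%, 0.3% in the running mice and 0% in the other 4 comparisons with HFD-C. The exact permutation test passed none of these mRNA calls.

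mt-Nd4l, a small complex I subunit, was called lower than in HFD-C in 4 of these comparisons. It stood at 204.7, 153.4, 77.6, 35.1, 20.4 and 23.5 CPM in HFD-C mice 1 to 6, that is, high in mice 1 to 3 and low in mice 5 and 6. NFD-C had 10.1 to 48.3 CPM (median 22.01), HFD-25% mice 12.8 to 71.8 (31.0), HFD-50% mice 10.5 to 65.6 (32.8), HFD-75% mice 9.73 to 119.8 (50.7) and HFD-U mice 13.8 to 50.1 (21.9). All of these ranges overlap that of HFD-C.

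The log2 change of mt-Nd4l by edgeR was -1.70 ± 0.53 in NFD-C (unadjusted p of 0.00539; exact permutation p = 0.0866). In HFD-U it was -1.77 ± 0.51 (unadjusted p of 0.00344; exact permutation p = 0.0628). In HFD-50% it was -1.24 ± 0.55 (unadjusted p of 0.0401; exact permutation p = 0.201), and in the running mice together -1.13 ± 0.41 (unadjusted p of 0.00966; exact permutation p = 0.0747). In the low-share libraries, where HFD-C mice 5 and 6 are the controls, the change turned to 0.72 in HFD-50%, 0.19 in HFD-U and 0.85 in the running mice, none called. The rRNA-linked level as a term in the fit turned it in the same way, to 0.53, 0.02 and 0.57. In HFD-50% the call was lost in 7 of the 12 fits that left out 1 mouse (without HFD-C mouse 1, 2 or 3, or HFD-50% mouse 1, 2, 3 or 4, with changes of -1.29 to -0.78) and with the replicate block. In the running mice it was lost without HFD-C mouse 1 (-0.67) or mouse 2 (-0.89). The call in NFD-C held in every edgeR and DESeq2 fit, including those that left out 1 mouse.

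mt-Nd3, another small complex I subunit, was called lower in HFD-U and higher in NFD-C. It lay at 9.82 to 28.8 CPM in HFD-C (median 16.9), 7.33 to 19.6 in HFD-U (10.5) and 10.01 to 136.6 in NFD-C (20.7), with overlap in both cases. The change was -0.70 ± 0.27 in HFD-U (edgeR, unadjusted p of 0.02; exact permutation p = 0.0628) and 1.42 ± 0.58 in NFD-C (unadjusted p of 0.0259; exact permutation p = 0.351). The former was lost without HFD-C mouse 3 or 4 (unadjusted p of 0.058 and 0.062) and in the low-share libraries, where it was -0.47. The rRNA-linked level as a term also ended the call in HFD-U (-0.64), as did 1 fit over all 36 mice. The call in NFD-C was lost without NFD-C mouse 3 (0.82), NFD-C mouse 1 (1.09) or HFD-C mouse 2 (1.29). It was also lost with the rRNA-linked level as a term (1.18), within the high-share libraries (1.32) and with the replicate block (0.79). Single mice also stood far above their groups in HFD-25% (mouse 4 at 207.6 CPM beside a group median of 11.8) and in HFD-75% (mouse 6 at 93.1 CPM beside 15.8), where the gene was not called.

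mt-Atp8, a small ATP synthase subunit, was the least counted mRNA. It lay at 1.14 to 4.07 CPM in HFD-C (median 2.66) and at 2.25 to 13.8 CPM in HFD-25% (4.03), a change of 1.01 ± 0.41 (edgeR, unadjusted p of 0.0261; exact permutation p = 0.0779). HFD-25% mouse 1 held the value of 13.8, and without it the change was 0.46 and not called. The call was also lost without HFD-C mouse 2 (0.95), without HFD-C mouse 5 (0.87) and within the low-share libraries (1.55). In HFD-50% the gene was called higher (0.87) with the rRNA-linked level as a term. mt-Atp6, which overlaps mt-Atp8 in the genome, was at 109 to 600.1 CPM in HFD-C (median 358) and had medians of 407 to 705 CPM in the exercise groups. Its change was 0.96 ± 0.46 in HFD-25% (unadjusted p of 0.0534) and 0.72 ± 0.42 in the running mice (unadjusted p of 0.0935), neither past the limit. In HFD-25% it was called higher in 9 alternative fits, with changes of 0.97 to 1.56, among them the fit with the rRNA-linked level as a term (1.45) and the low-share libraries (1.56). In HFD-U it was called with no minimum count (0.79) or without HFD-U mouse 2 (0.99), and in the running mice without HFD-C mouse 1 (0.94).

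The last 2 genes of the stretch are subunits of cytochrome c oxidase and were not called. mt-Co2 ranged from 166 to 1681 CPM in the running mice and from 295 to 606 CPM in HFD-C. mt-Co3 ranged from 114 to 1189 CPM in the running mice and from 231 to 593 CPM in HFD-C. Their changes in the running mice were 0.09 ± 0.36 and -0.06 ± 0.39.

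The 2 rRNAs were not called in any comparison with HFD-C. In CPM, mt-Rnr1 ranged from 797 to 2039 in HFD-C (median 1402) and from 1053 to 1497 in NFD-C (1118). HFD-25% had 688 to 1402 (1100), HFD-50% 1013 to 3571 (1579), HFD-75% 740.5 to 2197 (1236) and HFD-U 559.9 to 1403 (1162). The ranges overlapped throughout, and HFD-50% mouse 4 stood apart at 3571. The edgeR changes of mt-Rnr1 from HFD-C were -0.22 in NFD-C and, by rising distance, -0.34 ± 0.22, 0.37 ± 0.30, -0.07 and -0.35 ± 0.25 in the exercise groups. mt-Rnr2 gave -0.20, -0.29, 0.32, -0.08 and -0.24 in the same order. The unadjusted p-values ran from 0.141 to 0.802 for the former and from 0.163 to 0.757 for the latter.

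**Figure D4:**
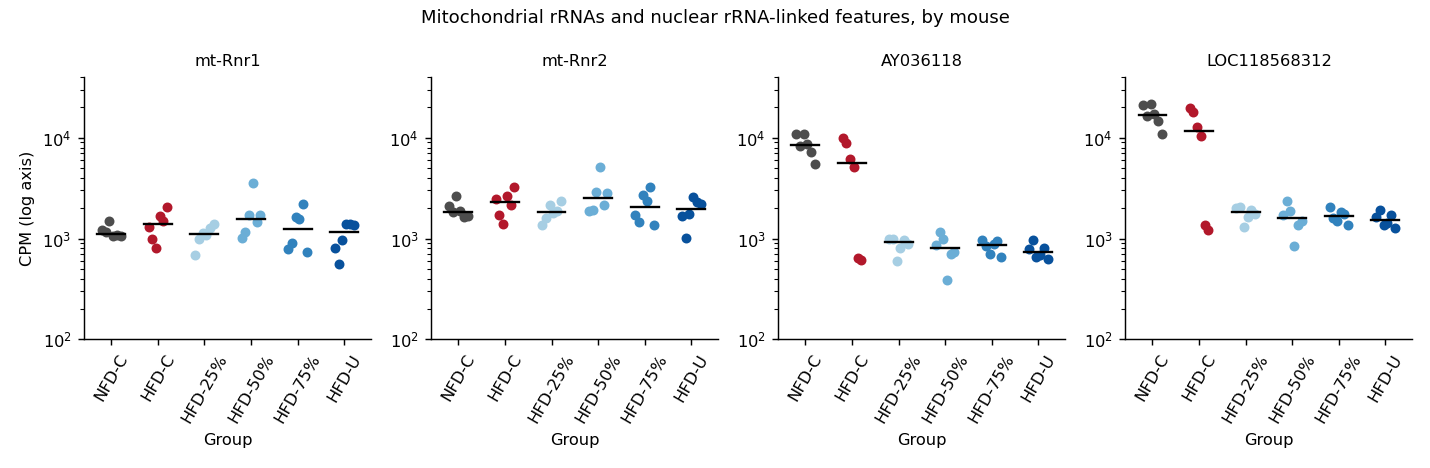
Level of mt-Rnr1 and mt-Rnr2 in each mouse by group, in CPM, with a line at the group median. The groups overlap for both genes, and HFD-50% mouse 4 is highest in both, at 3571 and 5142 CPM.

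For the rRNAs the calls depended on the fit. Where the rRNA-linked level was a term in the fit, with all 6 HFD-C mice kept, mt-Rnr1 was called lower in HFD-25% (-0.62) and in HFD-U (-0.71). So it was within the low-share libraries (-0.69 and -0.71). The only controls there are HFD-C mice 5 and 6, which at 1496 and 2039 CPM of mt-Rnr1 lay above the HFD-C median. Without HFD-C mouse 3 it was also called in HFD-25%, at -0.46. With mouse number as a replicate block mt-Rnr1 was -0.36 in HFD-U and called (edgeR, unadjusted p of 0.019). In HFD-U and HFD-C the deviations from the group means correlated above 0.1 in 6 of 6 same-numbered pairs. Pairs with different numbers were not compared, and the labels do not say what a number marks. These correlations therefore do not show that the mice were paired. mt-Rnr2 was called lower in HFD-25% in the same 2 fits (-0.49 with the term and -0.53 in the low-share libraries). The part of the rRNA-linked RNA in these changes was not tested.

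The 2 rRNAs moved together. Their log2 levels had a Pearson correlation of 0.97 over 36 mice, which share the library totals, and mt-Rnr2 had 1.44 to 2.17 times the counts of mt-Rnr1. The rRNAs had 1.36 to 4.93 counts for every 100 counts on the 13 mRNAs. The median was 2.30 in HFD-C, 2.48 in NFD-C and in the exercise groups by rising distance 1.76, 2.13, 2.26 and 1.75. The libraries were made from RNA bound to poly-T beads, so these values are not amounts of rRNA in the cell. The nuclear rRNA-linked features changed far more: AY036118 changed by -2.68 ± 0.27 in the running mice (edgeR, Benjamini-Hochberg adjusted p = 4.4e-08), where mt-Rnr1 changed by -0.08 ± 0.25 (unadjusted p of 0.764).

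Most mitochondrial tRNAs had few counts. The tRNAs are 59 to 75 bases long, and the library protocol preferentially kept longer fragments, so a count on a tRNA is mostly a count of a longer fragment that overlaps it, and mature tRNA and uncut precursor cannot be told apart. mt-Tp had a median of 2563.5 counts per library and mt-Tc 1781, followed by mt-Te with 835, mt-Tn with 555, mt-Th with 354.5, mt-Tl2 with 279.5, mt-Ts2 with 258.5, mt-Ty with 194.5, mt-Tl1 with 149.5 and mt-Tw with 94. These 10 and mt-Tq passed the filter, a mean count of 25 or more, in every comparison. The 3 tRNAs mt-Ti, mt-Tm and mt-Tt passed in some, and 8 never did, with 0 to 32 counts per library and mt-Tf at 0 in all 36.

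The tRNAs for cysteine (mt-Tc, chrM:5192-5257), asparagine (mt-Tn, chrM:5089-5159) and proline (mt-Tp, chrM:15356-15422) are shown because the results below turn on them. All 3 are encoded on the minus strand and border bases that hold no annotated feature. A gap of 32 bases separates mt-Tn from mt-Tc, and mt-Tp lies next to the non-coding part of the circle. The sequences are genomic, read 5′ to 3′ on the strand of the gene (GENCODE, GRCm38), and the mature tRNA carries a CCA end that they lack.
mt-Tc: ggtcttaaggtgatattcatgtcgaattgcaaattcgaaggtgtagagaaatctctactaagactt
mt-Tn: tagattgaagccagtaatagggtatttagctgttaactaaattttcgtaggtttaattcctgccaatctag
mt-Tp: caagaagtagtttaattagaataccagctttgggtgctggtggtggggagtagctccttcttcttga

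mt-Tc was lower than in HFD-C in NFD-C and in 3 of the 4 exercise groups. It lay at 120.5 to 177 CPM in HFD-C (median 154) and 95.8 to 151 in NFD-C (115). HFD-25% had 69.9 to 139 CPM (90.2), HFD-50% 58.8 to 164 (115), HFD-75% 63.5 to 130.2 (84.3) and HFD-U 52.9 to 122 (98.9). Of the 24 running mice 17 lay below every HFD-C mouse, and each group overlapped HFD-C by at least 1 mouse.

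By edgeR the log2 change of mt-Tc was -0.66 ± 0.17 in HFD-25% (unadjusted p of 0.00151; exact permutation p = 0.00649). It was -0.77 ± 0.19 in HFD-75% (unadjusted p of 0.00092; exact permutation p = 0.00433) and -0.68 ± 0.17 in HFD-U (unadjusted p of 0.00117; exact permutation p = 0.00433). In the running mice together it was -0.63 ± 0.17 (unadjusted p of 0.00077; exact permutation p = 0.00121). HFD-50% was short of the limit at -0.42 ± 0.21 (unadjusted p of 0.0662; exact permutation p = 0.0628), and NFD-C was past it at -0.34 ± 0.14 (unadjusted p of 0.0219; exact permutation p = 0.0325). The smallest exact value that 6 against 6 mice can give is p = 0.00216.

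The calls of mt-Tc in HFD-25%, HFD-75%, HFD-U and the running mice held in every fit that left out 1 mouse. They also held within the low-share libraries, where the changes were -0.78, -0.90, -0.81 and -0.76. The only controls there are HFD-C mice 5 and 6, which at 164 and 173 CPM lay above the HFD-C median. The call in NFD-C was lost without NFD-C mouse 5 (-0.29), without NFD-C mouse 2 (-0.30) or HFD-C mouse 4 (-0.30), within the high-share libraries (-0.28) and with the rRNA-linked level as a term (-0.27). With Benjamini-Hochberg adjustment over all genes edgeR gave an adjusted p = 0.34 in HFD-25%, adjusted p = 0.41 in HFD-U and adjusted p = 0.11 in the running mice. With mouse number as a replicate block edgeR gave an adjusted p = 0.0244 in HFD-U, past the limit, and DESeq2 gave an adjusted p = 0.0376 in HFD-75%.

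mt-Tn, the neighbour of mt-Tc across the gap, was lower in the same 3 exercise groups. It lay at 34.8 to 46.7 CPM in HFD-C (median 43.0) and 27.1 to 50.3 in NFD-C (42.2). HFD-25% had 17.5 to 44.3 CPM (24.5), HFD-50% 20.3 to 50.3 (33.4), HFD-75% 18.0 to 38.6 (26.9) and HFD-U 13.7 to 32.97 (26.3). All 6 HFD-U mice and 18 of all 24 running mice lay below every HFD-C mouse.

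The edgeR changes of mt-Tn were -0.66 ± 0.19 in HFD-25% (unadjusted p of 0.00329; exact permutation p = 0.0108) and -0.57 ± 0.19 in HFD-75% (unadjusted p of 0.00947; exact permutation p = 0.0108). In HFD-U the change was -0.67 ± 0.17 (unadjusted p of 0.00128) with an exact permutation p = 0.00216, the smallest that 6 against 6 can give. In the running mice it was -0.52 ± 0.18 (unadjusted p of 0.0069; exact permutation p = 0.00671) and in NFD-C -0.05 (unadjusted p of 0.706; exact permutation p = 0.626). The log2 levels of mt-Tc and mt-Tn had a Pearson correlation of 0.90 over 36 mice in the same libraries.

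**Figure D5:**
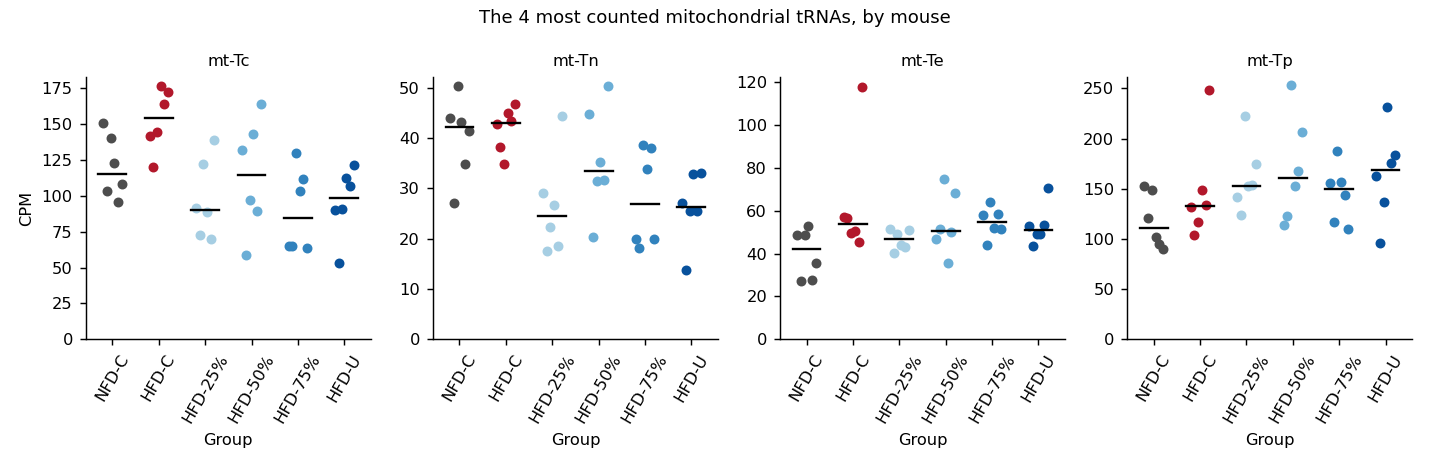
Level of 4 mitochondrial tRNAs in each mouse by group, in CPM, with a line at the group median. mt-Tc and mt-Tn lie lower in most running mice than in HFD-C mice, and HFD-C mouse 6 stands above its group for mt-Tp and mt-Te, at 248.6 and 117.9 CPM.

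All calls of tRNAs against HFD-C were lower. HFD-25% had 3 of 12 tested (mt-Tn, mt-Tc and mt-Te), beside 3.58% of all genes called lower. HFD-50% had 0 of 13 (4.89% of all genes), HFD-75% 2 of 13 (3.16%), HFD-U 2 of 13 (3.31%) and the running mice 2 of 12 (5.12%). NFD-C had 4 of 11, beside 2.14% of all genes called lower. These were mt-Tc, mt-Te by -0.64 ± 0.24 (edgeR, unadjusted p of 0.0158; exact permutation p = 0.039), mt-Tw by -0.61 (unadjusted p of 0.0392; exact permutation p = 0.0931) and mt-Ty by -0.78 (unadjusted p of 0.0427; exact permutation p = 0.0498). The rRNA-linked level as a term ended the calls of mt-Te (-0.42) and mt-Ty (-0.72) in NFD-C, and several fits that left out 1 mouse ended those of mt-Tw and mt-Ty.

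Other tRNA values moved when HFD-C mouse 6 was left out. For mt-Te, the glutamate tRNA, the change in HFD-25% was -0.43 ± 0.20 (edgeR, unadjusted p of 0.0463; exact permutation p = 0.0498), and without this mouse it was -0.15 and not called. The call was also lost without HFD-C mouse 2 or without any of HFD-25% mice 2 to 6, with changes of -0.46 to -0.40. mt-Tp, the most counted tRNA, changed by 0.12 in the running mice (not called), or by 0.34 without this mouse (unadjusted p of 0.048).

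The tRNAs were also set out by the strand that encodes them, without a test. Whether strand was used in counting is not given, so the counts may not separate RNA of the opposite strands. In the running mice the 6 plus-strand tRNAs tested were all above 0, with a median change of 0.24 and none called, and of 6 on the minus strand 4 were below 0, with a median of -0.18 and 2 called. HFD-50% had 7 of 7 above 0 on the plus strand and 3 of 6 on the minus strand. In NFD-C 4 of 5 on the plus strand and 6 of 6 on the minus strand were below 0, and between HFD-50% and HFD-U both strands had medians above 0. mt-Nd6 is the only mRNA encoded on the minus strand, and it changed by 0.00 ± 0.14 in the running mice.

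Set against the mRNAs of the same library, the summed tRNA counts were lower in most running mice. A lower sum is not a fall of every tRNA. By edgeR 4 of 12 tRNAs tested were below 0 in the running mice, with a median change of 0.13 over the 12. HFD-C mice had 289 to 333 tRNA counts for every 100000 counts on the 13 mRNAs (median 310.2). The range was 253 to 275 in HFD-25% mice, 254 to 303 in HFD-50% mice, 219.6 to 318 in HFD-75% mice and 222 to 282 in HFD-U mice. All 6 mice of HFD-25% and of HFD-U lay below every HFD-C mouse, and 21 of 24 running mice did. NFD-C mice had 235 to 321, and 2 of 6 lay below every HFD-C mouse. For mt-Tc alone, which is part of that sum, HFD-C mice had 0.695 to 1.23 counts for each count on mt-Tp (mouse 6 lowest, median 1.17). The running mice had 0.385 to 1.16 with a median of 0.584. NFD-C had 0.861 to 1.21. These are sums and ratios over the members, given without a test.

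HFD-50% and HFD-U, the groups with the middle and the longest distance, differed in 1 of 13 mRNAs, beside 12.4% of all genes tested. No mitochondrial feature passed the adjusted limit by edgeR, beside 0.00844% of all genes. The mRNA was mt-Atp8, at 2.04 to 6.08 CPM in HFD-50% and 0.308 to 3.16 CPM in HFD-U, a difference of 1.04 ± 0.45 (edgeR, unadjusted p of 0.0367; exact permutation p = 0.0433). Leaving out HFD-50% mouse 3 or 6, or HFD-U mouse 2, 3 or 5, ended the call, with differences of 0.82 to 0.99. mt-Rnr1 was higher in HFD-50% by 0.72 ± 0.30 (unadjusted p of 0.0317; exact permutation p = 0.0714). Without HFD-50% mouse 4 it was higher by 0.39 and not called, nor was it without HFD-U mouse 1, 2 or 3 (0.65, 0.59 and 0.69). mt-Rnr2 differed by 0.56 ± 0.27 (unadjusted p of 0.0578; exact permutation p = 0.115).

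The 7 mRNAs not wholly in the copied stretch differed between HFD-50% and HFD-U by 0.01 to 0.15, and 0 of 14 tRNAs tested were called by edgeR. Summed slow-fibre markers also differed between these groups, at 585 to 3879 CPM in HFD-50% and 145 to 1805 CPM in HFD-U, and their part in the differences was not tested.

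The daily distance was also used as a number, with a linear and a quadratic term. mt-Atp8 was the 1 mRNA of 13 called over the 30 mice fed high-fat diet (edgeR, unadjusted p of 0.00636), beside 12.2% of all genes, and the 1 called over the 24 running mice (unadjusted p of 0.00601), beside 8.49%. Its medians by rising distance were 2.66 CPM in HFD-C and then 4.03, 3.24, 2.77 and 1.79 CPM. Of the tRNAs mt-Tc was called over the 30 mice (unadjusted p of 0.0081) and none over the 24 running mice. No rRNA was called in either, and no member passed the adjusted limit, beside 0.683% and 0.0419% of all genes.

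The nuclear genes that copy and express mitochondrial DNA showed few calls in the running mice, beside the same 9.27% of all genes. Of 16 genes for mtDNA copying and packaging 16 were tested and 0 called by edgeR (median change 0.01), and Tfam, which packs mitochondrial DNA and starts its transcription, changed by -0.02 (exact permutation p = 0.76). Of 11 transcription genes 9 were tested and 1 was called, Mterf4, higher by 0.33 ± 0.14 (unadjusted p of 0.0237; exact permutation p = 0.0118), while the polymerase Polrmt changed by -0.11 (exact permutation p = 0.136) and its partner Tfb2m by -0.02. Of 27 genes for RNA processing and stability 1 was called, Pde12, a nuclease that removes poly(A), which fell by 0.32 (unadjusted p of 0.0278; exact permutation p = 0.0202). Lrpprc and Slirp, which stabilise the mRNAs, changed by -0.05 and -0.10, and the poly(A) polymerase Mtpap by -0.01. Of 15 translation factors 14 were tested and 0 were called by edgeR.

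Of 22 mitochondrial aminoacyl-tRNA synthetase genes 20 were tested and 1 was called, Lars2, which charges the leucine tRNAs. It had a median of 87.6 CPM in the running mice (47.7 to 179) and of 788 CPM in HFD-C (71.6 to 1483), a change of -2.97 ± 0.30 (edgeR, Benjamini-Hochberg adjusted p = 4.4e-08). Lars2 moved with the rRNA-linked share: NFD-C mice had a median of 1267 CPM, and within the low-share libraries the change was 0.32 and not called. Its tRNAs, mt-Tl1 and mt-Tl2, were not called in any comparison with HFD-C.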

How the data were processed

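RNA was measured in 36 gastrocnemius muscles by poly(A)-selected, paired-end RNA-seq with random hexamer priming. The deposited table holds whole-number counts per gene, which the authors made with HISAT2 2.0.5 and featureCounts 1.5.0-p3; the submitters' processing notes also name StringTie 1.3.3b, DESeq2 1.20.0 and edgeR 3.22.5. The notes name mm10 as the build, but the coordinates in the table are those of GRCm39, and the mitochondrial chromosome has the same coordinates in both. Whether strand was used in counting, and how reads with several matches were treated, is not given in the sources used here.

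Groups were taken from the labels of the samples. Members and gene lists were chosen with earlier results of these data known. The rule for named genes was every mitochondrial mRNA and rRNA, the tRNAs that passed the filter in every comparison, 7 set nuclear genes and the 3 genes of each nuclear list with the smallest p in the running mice; other genes were named after their values were seen. edgeR 4.0.16 (quasi-likelihood test, TMM scaling, R 4.3.3) was fitted across all genes whose mean count over the mice of a comparison was 25 or more. A call was an unadjusted p of at most 0.05, the limit of the study, and Benjamini-Hochberg adjusted p-values are over all genes tested. The 9 comparisons were each exercise group, NFD-C and the running mice against HFD-C, HFD-50% against HFD-U, and the distance over 30 and over 24 mice. Alternatives were DESeq2 1.42.0, its size factors (RLE), scaling over nuclear features, no minimum count, the rRNA-linked level as a covariate, libraries on 1 side of the gap in that level, 1 fit over all mice, a factor for the groups in place of the distance, mouse number as a replicate block and leaving out each mouse. An exact permutation test (two-sided) of the difference in mean log2(CPM + 0.5) over all assignments of the mice was added after the data were seen, for 49 named genes in the 7 comparisons of 2 sets of mice. The scripts were tested on simulated data. CPM are counts scaled to the library total times its TMM factor; RPKM and shares of counts use the library total alone, RPKM with the gene lengths of the table.

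Mouse numbers recur across groups. Deviations from group means (log2 CPM with a pseudocount of 2) correlated above 0.1 in 6 of 6 same-numbered pairs of HFD-U and HFD-C (0.125 to 0.518). A correlation above 0.1 was found in 1 to 5 of 6 pairs in the other comparisons of 2 groups. Pairs with different numbers were not compared, so this limit, set on the same data, does not show that mice were paired. The replicate block is an alternative fit only. No replicates agreed within sampling noise (chi-square per degree of freedom of at least 16.5). Total counts were 13060090 to 27981702.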

Additional observations from a re-analysis of the deposited data

Results flagged for a closer look

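In 29 quantities and 6 groups, 174 sets of 6 mice were searched for a mouse far from the other 5 (Dixon's test). For normal, independent sets chance gives about 1 in 20, or 8.7. There were 18. Of the genes in the copied stretch, mt-Co2 stood at 1681 CPM in HFD-50% mouse 3, 1194 in HFD-75% mouse 4 and 1092 in HFD-U mouse 4. mt-Co3 stood at 1086 CPM in HFD-50% mouse 6, mt-Nd3 at 207.6 in HFD-25% mouse 4 and at 93.1 in HFD-75% mouse 6, mt-Atp8 at 13.8 in HFD-25% mouse 1 and mt-Nd4l at 50.11 in HFD-U mouse 4. The highest mouse often recurred: HFD-U mouse 4 was highest in its group for mt-Co2, mt-Co3, mt-Atp6, mt-Nd3 and mt-Nd4l, and HFD-50% mouse 6 for mt-Co3, mt-Atp8, mt-Nd3 and mt-Nd4l. These mice were also high in the 7 mRNAs not wholly in the stretch. HFD-U mouse 4 had 21.7% of counts on the 7, the most of its group. HFD-50% mouse 6 had 21.4%, next to mouse 3 at 21.5%.

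The rRNAs stood apart in HFD-50% mouse 4, with 3571 CPM for mt-Rnr1, 5142 for mt-Rnr2 and 0.8859% of counts for both together, and in NFD-C mouse 3, with 1497 CPM for mt-Rnr1 and 0.41% for both. HFD-C mouse 6 was far above the other HFD-C mice for mt-Tp at 248.6 CPM, mt-Te at 117.9 and mt-Nd5 at 19862. HFD-C mouse 4 was so for mt-Ts2 at 22.28 CPM, and HFD-U mouse 6 for mt-Te at 70.71.

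The change from HFD-C differed between HFD-50% and HFD-U by 0.7212 (log2) for mt-Rnr1 and by 1.04 for mt-Atp8, as tested between these groups directly. The unnamed chromosome 1 feature on the plus strand was above the highest HFD-C mouse (62.0 CPM) in 4 running mice. These were HFD-75% mouse 2 at 76.59 CPM and mouse 5 at 153.6, and HFD-U mouse 5 at 349.4 and mouse 6 at 77.66. NFD-C mice were left out of this search.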

How the results depend on the processing

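Of the counts of mRNAs called, 52 of 70 under another setting stayed within 1.5 times the count reported, and 124 of 156 with a mouse left out. The count of 1 in HFD-25% became 2 with RLE size factors, the covariate, 1 fit over all mice or the replicate block, and 4 with no minimum count. With no minimum count it became 2 in HFD-50% and 2 for the distance over 30 mice. With the covariate it was 1 in HFD-75%, 0 in HFD-U and 1 in NFD-C. On 1 side of the rRNA-linked gap it was 0 in HFD-50%, HFD-U and the running mice and 1 in NFD-C. It was 1 in HFD-U with 1 fit over all mice, 1 in NFD-C with the replicate block, and 3 and 2 for the distance over 30 and 24 mice with a factor for the groups. With a mouse left out the counts ranged from 1 to 2 in HFD-25%, 1 to 2 in NFD-C, 0 to 1 in the running mice, 0 to 2 in HFD-50%, 0 to 0 in HFD-75%, 1 to 3 in HFD-U, 0 to 2 for HFD-50% against HFD-U, 1 to 2 for the distance over 30 mice and 1 to 2 over 24. The cause was not tested.

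The sign of a called change turned for 3 genes. For mt-Nd4l the covariate and the low-share libraries gave 0.534 and 0.725 in HFD-50%, 0.0156 and 0.190 in HFD-U, and 0.566 and 0.846 in the running mice. For Lars2 the low-share libraries gave 0.421 in HFD-25%, 0.479 in HFD-50%, 0.322 in the running mice, 0.00957 in HFD-U and 0.343 in HFD-75%, and the covariate gave 0.00248 in HFD-50%. For mt-Co2 in HFD-U, leaving out a mouse gave -0.372 to 0.165, the first without HFD-U mouse 4 (edgeR, called lower). In the comparison of HFD-U with HFD-C, the replicate block called 2 mRNAs, as without it, and changed the call of no other mitochondrial feature than mt-Rnr1. In the other comparisons with HFD-C the block called 2 mRNAs in HFD-25%, 1 in NFD-C, 1 in the running mice, 1 in HFD-50% and 0 in HFD-75%. An equal count can hold other genes: the call in HFD-50% was mt-Nd3 with the block and mt-Atp8 with the covariate, in place of mt-Nd4l, the call in the running mice with the covariate was mt-Nd2, and the call in HFD-25% in the low-share libraries was mt-Atp6. Benjamini-Hochberg adjusted p-values of mitochondrial features of at most 0.05 came up for mt-Tc only, with the block in HFD-U (0.0244) and the running mice (0.0140), with DESeq2 in HFD-75% (0.0376), and in 1 alternative for the distance over 30 mice (0.0441). Of single-gene results, 2851 of 3001 under other settings and 4791 of 4986 with a mouse left out kept their side of the limit and, where called, their direction. The settings on 1 side of the rRNA-linked gap were not run for HFD-50% against HFD-U and the distance over 24 mice, since all these libraries are on the low side. The mRNAs with the fewest counts were mt-Atp8 and mt-Nd3, with medians of 45.5 and 241.5 per library. Of the tRNAs that passed the filter in every comparison, mt-Tq had the fewest, with a median of 34. The part of depth in these results was not tested.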

Other observations

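In the single groups a few nuclear genes of mitochondrial gene expression passed the unadjusted limit (edgeR), each without a call after Benjamini-Hochberg adjustment. Against HFD-C each list had 0 or 1 gene called, or 2 of 20 for the synthetases in HFD-U (Lars2 and Qrsl1). The share of all genes called was 4.12% in NFD-C and 5.46% to 10.7% in the exercise groups. Between HFD-50% and HFD-U, beside 12.4% of all genes, 3 of 15 mtDNA copying genes were called (Rrm2b, Atad3a and Tfam). The other lists had 0 or 1 there. The genes below are a choice from these. Tfb1m, which methylates the 12S rRNA, was higher than HFD-C in HFD-U by 0.45 (unadjusted p of 0.0153; exact permutation p = 0.00866). Atad3a, a membrane protein bound to mitochondrial DNA, was higher in HFD-50% than in HFD-C by 0.34 (unadjusted p of 0.0324; exact permutation p = 0.039) and than in HFD-U by 0.35 (unadjusted p of 0.0238; exact permutation p = 0.039). Tfam fell by 0.23 ± 0.10 in HFD-50% against HFD-U (unadjusted p of 0.0376; exact permutation p = 0.0216). Elac2, which cuts tRNAs at their 3′ ends, was higher in HFD-75% by 0.24 (unadjusted p of 0.032; exact permutation p = 0.0346) and in NFD-C by 0.23 (unadjusted p of 0.0476; exact permutation p = 0.0325). Pde12 fell by 0.33 in HFD-25% (unadjusted p of 0.039; exact permutation p = 0.013), and Gatb, needed to charge the glutamine tRNA, fell by 0.29 in NFD-C (unadjusted p of 0.0333; exact permutation p = 0.0325).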
